A study of Homo sapiens with 6 samples.

Results

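The genes described here are 41 genes of glucose uptake, glycolysis, lactate handling and the response to low oxygen, in SCC90 cells with and without knockdown of ΔNp63. They were taken by name from a list of 7 glucose transporters, 3 hexokinases, 7 enzymes of upper glycolysis, 3 PFKFB enzymes, 6 enzymes of lower glycolysis, 6 genes of pyruvate and lactate handling, 2 carbonic anhydrases and 7 genes of the HIF system and hypoxia response. All 41 were found among the 40488 Ensembl genes of the deposited table. The rule itself names genes and uses no measured value, but the list was drawn up with earlier results of these data known.

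SCC90 is an established cell line from a human papillomavirus-positive oropharyngeal squamous cell carcinoma. The study sequenced poly(A) RNA from 3 libraries of cells transfected with an siRNA against ΔNp63 (siDNp63), at 10 nM according to the labels, and 3 libraries of cells transfected with a scrambled siRNA (siCTRL), all collected 72 h after transfection with Lipofectamine RNAiMAX. The study's methods give a different siRNA dose. A single cell line and a single siRNA against ΔNp63 were used, and the labels do not say whether the 3 libraries of a group came from separate cultures, so p-values measure the spread between these libraries only.

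Cells take up glucose through the GLUT proteins, which the SLC2A genes encode. Hexokinase traps it as glucose 6-phosphate, phosphofructokinase commits it to glycolysis, and pyruvate is either burned in mitochondria or turned into lactate, which leaves the cell through the monocarboxylate transporters of the SLC16A family. When oxygen is scarce, the transcription factor HIF-1 escapes the prolyl hydroxylases of the EGLN family and raises many of these genes, and squamous carcinomas are known for strong glucose uptake.

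HIF-1 and HIF-2 bind the hypoxia response element, whose core letters are ACGTG or GCGTG. The 250 bases before the transcription start of 4 genes are shown because those genes belong to the hypoxia response or to its classical glycolytic targets and moved in different directions: LDHA and BNIP3 were higher in siDNp63 cells, PGK1 and ADM lower. Capitals mark ACGTG or GCGTG on either strand, so CACGT and CACGC are the same cores read from the other strand, and CACGTG holds both ACGTG and CACGT in overlap. The windows lie on GRCh38.p14 at chr11:18394313-18394562 (LDHA, plus strand), chr10:131981924-131982173 (BNIP3, minus strand), chrX:78103998-78104247 (PGK1, plus strand) and chr11:10304823-10305072 (ADM, plus strand), and the sequences are RefSeq's, written 5′ to 3′ along each gene.
LDHA: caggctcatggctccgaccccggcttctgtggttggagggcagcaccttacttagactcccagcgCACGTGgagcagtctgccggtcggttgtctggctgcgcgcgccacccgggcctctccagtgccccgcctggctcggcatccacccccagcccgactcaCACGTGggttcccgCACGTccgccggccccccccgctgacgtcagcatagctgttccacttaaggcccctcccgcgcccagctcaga
BNIP3: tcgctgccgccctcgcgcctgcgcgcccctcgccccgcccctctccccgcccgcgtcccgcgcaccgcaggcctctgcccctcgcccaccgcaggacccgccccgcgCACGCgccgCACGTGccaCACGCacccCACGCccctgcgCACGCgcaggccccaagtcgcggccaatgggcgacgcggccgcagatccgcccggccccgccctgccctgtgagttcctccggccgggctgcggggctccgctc
PGK1: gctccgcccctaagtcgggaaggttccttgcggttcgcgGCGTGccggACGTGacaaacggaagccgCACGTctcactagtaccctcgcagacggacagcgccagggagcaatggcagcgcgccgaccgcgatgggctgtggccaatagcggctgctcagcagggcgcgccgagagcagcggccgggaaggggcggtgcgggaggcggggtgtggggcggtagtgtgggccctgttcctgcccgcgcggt
ADM: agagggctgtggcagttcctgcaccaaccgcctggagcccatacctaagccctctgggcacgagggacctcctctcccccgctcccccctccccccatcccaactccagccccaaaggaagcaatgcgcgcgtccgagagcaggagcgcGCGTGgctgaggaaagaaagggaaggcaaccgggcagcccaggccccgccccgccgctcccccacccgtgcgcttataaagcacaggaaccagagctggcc

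LDHA had 5 core matches in this window, BNIP3 had 6, PGK1 had 3 and ADM had 1. A CACGTG was counted once for each strand, so these counts exceed the marked stretches of LDHA and BNIP3. Over all genes in RefSeq's promoter set, 35116 windows of this length, 43.2% held at least 1 core. The 41 genes had 65 such windows, of which 37, or 56.9%, held a core. By gene, 37 of the 41 had a window, and 29 of these held a core in at least 1 of their windows, against 47.4% of 27305 genes in all. The count by gene favours genes with several windows. A core was found for 6 of the 8 genes lower in siDNp63 cells that had a window, for 9 of the 12 higher genes and for 12 of the 14 tested genes that did not pass. A match is a run of letters and was not measured as a binding site.

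Total expected counts per library, the depth, lay between 35716277 and 52598831 in siDNp63 cells and between 38110314 and 48741346 in siCTRL cells. TP63 (chr3:189631389-189897276), the targeted gene, had 15520, 14474 and 15414 normalized counts in siDNp63 libraries and 42319, 44204 and 43700 in siCTRL libraries, a log2 fold change of −1.52 ± 0.04 (SE, adjusted p = 7.59e-07). Normalized counts are rounded expected counts after TMM scaling between libraries, every fold change here is siDNp63 over siCTRL from edgeR's quasi-likelihood fit, and a gene passed the test at a Benjamini-Hochberg adjusted p under 0.05 over all 17257 genes tested. Replicate 1 of siDNp63 stood apart from the other 5 libraries on the second principal component, so calls on the 41 genes that change without it are given both ways. All 8 squamous epithelial markers averaged over 1 TPM across the 6 libraries (a level per transcript length, with the same total in every library). Of the basal keratins, KRT5 averaged 5.43 TPM in siDNp63 and 7.08 TPM in siCTRL libraries, and KRT14 1.485 TPM in siDNp63 and 0.524 TPM in siCTRL libraries, where it was under 1 TPM in each. Leukocyte markers summed to 11.4–12.4 TPM in siDNp63 libraries and 13.9–15.8 TPM in siCTRL libraries (4 of 7 over 1 TPM, TYROBP at 0 in every library), and fibroblast markers to 5.83–9.11 and 8.72–10.8 TPM in siDNp63 and siCTRL libraries (3 of 6 over 1 TPM, COL1A2, COL3A1 and LUM near 0). Endothelial markers summed to 11.1–13.6 TPM in siDNp63 libraries and 2.56–3.03 TPM in siCTRL libraries, mostly from KDR (7.98 TPM in siDNp63 and 1.63 TPM in siCTRL) and PECAM1 (3.25 and 0.614 TPM). VWF of the same list averaged 0.992 TPM in siDNp63 and 0.463 TPM in siCTRL libraries, and CDH5 and CLDN5 averaged 0.0465 and 0.0517 TPM over the 6 libraries. What part these transcripts have in the results was not tested. Fewer cells of a type and less RNA per cell cannot be told apart in bulk RNA.

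Knockdown was accompanied by changes in both directions across these genes. The transporters SLC2A1 and SLC2A9, the phosphofructokinase PFKM, the lactate carrier SLC16A1 and the hypoxia genes NDRG1 and ADM were lower in siDNp63 cells, while LDHA, PKM, HIF1A, BNIP3, EGLN3 and SLC2A12 were higher. Of the 38 genes tested, 22 passed, or 57.9%, where 33.6% of all tested genes did. Among them 10 were lower, where 15.2% of all tested genes were, and 12 were higher, where 18.4% were. The median log2 fold change over the 38 genes was 0.04, and over all tested genes −0.02. High counts make small changes easier to call, and 24 of the genes had a mean of at least 1000 normalized counts: 14 of these passed, or 58.3%, where 47.5% of all genes at that level did. Of the 14 tested genes below that level 8 passed, where 33.6% of all tested genes at any level did. The share over all genes below that level was not counted. What part the level has in these shares was not tested. Only SLC2A12 and ANKRD37, 2 of the 38, passed with an absolute log2 fold change over 1, where 4.06% of all tested genes both passed and reached that size. The siDNp63 libraries lay wholly below the siCTRL libraries for 12 of the 38 genes and wholly above for 14, where 24.7% of all tested genes did each, or 49.4% in either direction. Without siDNp63 replicate 1 the test called 27 genes, where it called 38.4% of all genes then tested. Those were 12 lower genes, against 17.9% lower in all, and 15 higher genes, against 20.5% in all. Without siCTRL replicate 3 the lower genes numbered 6. The share over all genes was not counted for that fit, so whether this fall is particular to these genes was not tested.

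**Figure D1:**
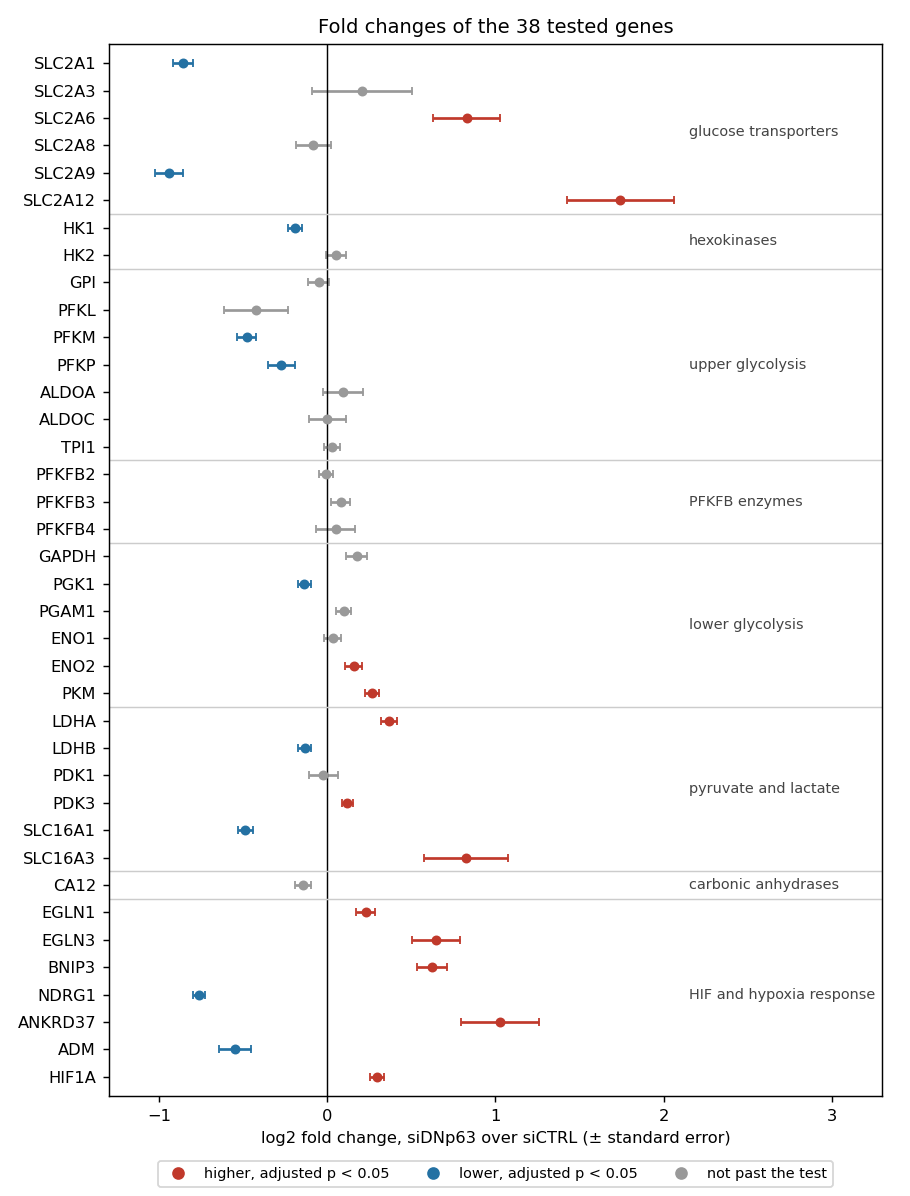
Log2 fold change (x axis, siDNp63 over siCTRL) of the 38 tested genes, grouped by role; points are edgeR estimates, whiskers are standard errors, and colour gives the call at an adjusted p under 0.05. Estimates run from −0.94 for SLC2A9 to 1.74 for SLC2A12, and the 7 genes of the HIF and hypoxia group are all coloured, 2 of them lower and 5 higher.

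Among the glucose transporters, SLC2A1 encodes GLUT1, the main basal glucose carrier of epithelial and cancer cells, and lies on GRCh38 at chr1:42925353-42958893, minus strand. It had 1432, 1644 and 1616 normalized counts in siDNp63 libraries, against 2788, 2764 and 2959 in siCTRL libraries. Every siDNp63 library was below every siCTRL library, and the log2 fold change was −0.86 ± 0.06 (SE, adjusted p = 3.77e-05), or 0.552-fold. SLC2A9, a carrier of urate and hexoses, had 262, 242 and 249.9 normalized counts in siDNp63 libraries, against 458, 505 and 486 in siCTRL libraries. No siDNp63 library reached a siCTRL library here either, and the log2 fold change was −0.94 ± 0.08 (SE, adjusted p = 0.000115).

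Among the 7 transporters, those that were higher, SLC2A12 and SLC2A6, had few reads. SLC2A12, encoding GLUT12, had 37.1, 58.2 and 37.2 normalized counts in siDNp63 libraries, against 15.6, 14.6 and 9.01 in siCTRL libraries, a log2 fold change of 1.74 ± 0.32 (SE, adjusted p = 0.00402). Replicate 2 of siDNp63 stood highest, and the groups did not overlap. SLC2A6, which encodes the lysosomal carrier GLUT6, had 43.5, 42.8 and 46.7 normalized counts in siDNp63 libraries, against 26.9, 22.9 and 24.8 in siCTRL libraries, a log2 fold change of 0.83 ± 0.20 (SE, adjusted p = 0.0145). These groups did not overlap, although the call ended without siDNp63 replicate 3, siCTRL replicate 2 or siCTRL replicate 3 (adjusted p = 0.0528, 0.0597 and 0.0519) and under DESeq2 (adjusted p = 0.0738). A second Ensembl ID without a name, ENSG00000281165, carried the same values as SLC2A6, so the printed level of this gene may be a part of its reads.

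SLC2A8, the intracellular carrier GLUT8, had 422, 515 and 514 normalized counts in siDNp63 libraries, against 542, 523 and 473 in siCTRL libraries, and did not pass (log2 fold change −0.08 ± 0.10, SE, adjusted p = 0.583). SLC2A3 encodes GLUT3, a high-affinity carrier best known from neurons, and had 29.4, 17.98 and 19.1 normalized counts in siDNp63 libraries, against 20.8, 15.6 and 20.3 in siCTRL libraries. Its groups overlapped (log2 fold change 0.21 ± 0.30, SE, adjusted p = 0.639), and the estimate was −0.86 when differences in transcript length between libraries entered the fit (adjusted p = 0.435). The table holds 3 pseudogenes of SLC2A3, which summed to 2.63, 0.511 and 0.176 TPM in siDNp63 libraries and 9.54, 6.90 and 5.94 TPM in siCTRL libraries, more than the gene's own mean of 0.578 TPM, so reads of the gene and its copies may not be separable. SLC2A10, which encodes GLUT10, was too low to test, at 1.91–8.96 normalized counts in siDNp63 libraries and 2.08–5.21 in siCTRL libraries.

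Per transcript length, the 7 transporters together reached 41.9, 45.1 and 49.1 TPM in siDNp63 libraries, against 77.8, 74.6 and 77.0 TPM in siCTRL libraries (45.4 ± 3.603 TPM in siDNp63 and 76.5 ± 1.67 TPM in siCTRL, SD, n = 3 each, exact two-sided permutation p = 0.1). With 3 libraries against 3 this test cannot give a p below 0.1, and it was run on 28 shares, sums and ratios in all, after Benjamini-Hochberg adjustment over which every p of 0.1 given here became 0.14. SLC2A1 made up 50.9 ± 1.66% of the transporter TPM in siDNp63 cells and 57.8 ± 1.02% in siCTRL cells, and SLC2A8 30.7 ± 0.960% and 22.3 ± 2.02% (SD, n = 3 each, exact p = 0.1 for both). The ratio of SLC2A1 to SLC2A9 was 3.298 ± 0.336 in siDNp63 cells and 3.20 ± 0.214 in siCTRL cells (SD, n = 3 each, exact two-sided p = 0.8, adjusted 0.862), within the spread of the libraries.

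**Figure D2:**
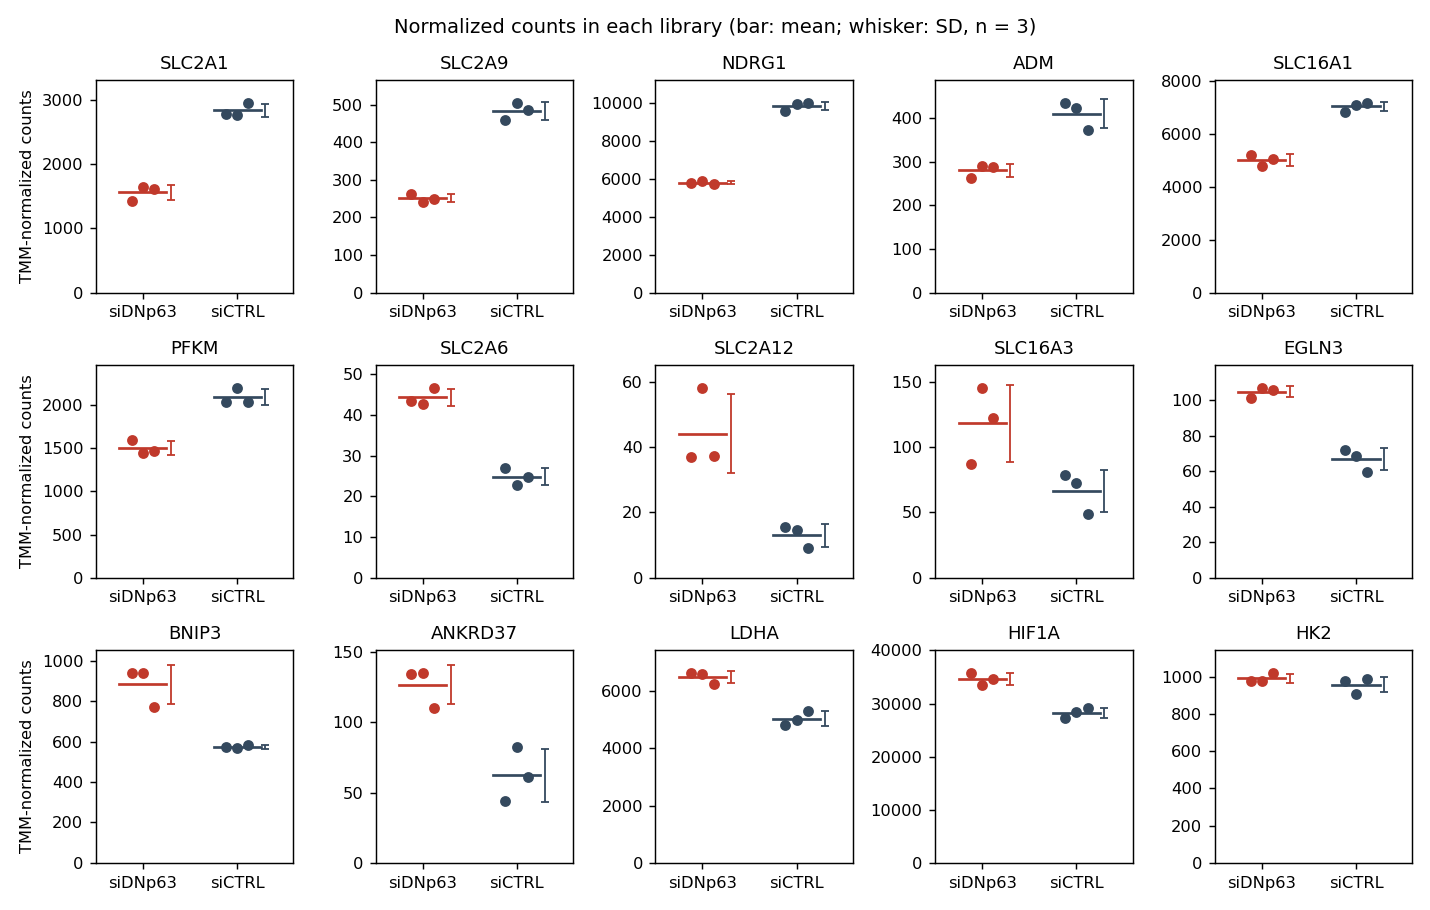
TMM-normalized counts (y axis, from 0 in each panel) of 15 genes in each of 3 siDNp63 and 3 siCTRL libraries; points are libraries, horizontal bars are means and whiskers are SDs. The groups are apart in every panel but HK2, where 977, 978 and 1020 counts in siDNp63 libraries lie among 975, 909 and 986 in siCTRL libraries.

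Of the 2 hexokinases tested, 1 passed, beside 33.6% of all tested genes. HK1, the hexokinase of most tissues, averaged 4195 ± 169.5 normalized counts in siDNp63 libraries and 4796 ± 113 in siCTRL libraries (SD, n = 3 each), with a log2 fold change of −0.19 ± 0.04 (SE, adjusted p = 0.0101) that no longer passed without siCTRL replicate 3 (adjusted p = 0.0558). HK2, the inducible isoenzyme linked to tumours, had 977, 978 and 1020 normalized counts in siDNp63 libraries, against 975, 909 and 986 in siCTRL libraries. These groups overlapped, and the change did not pass, at 0.05 ± 0.06 (SE, adjusted p = 0.534). HKDC1, a hexokinase-like gene, had 0, 3 and 2 expected counts in siDNp63 libraries and 1, 0 and 0 in siCTRL libraries and was not tested. Together the hexokinases reached 49.0 TPM in siDNp63 cells and 57.6 TPM in siCTRL cells, of which HK1 made up 87.0 ± 0.662% and 88.8 ± 0.321% (SD, n = 3 each, exact two-sided p = 0.1).

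Of the 7 enzymes of upper glycolysis, 2 passed, beside 33.6% of all tested genes, and both were phosphofructokinases. PFKM, named for muscle, had 1595, 1442 and 1466 normalized counts in siDNp63 libraries, against 2033, 2197 and 2034 in siCTRL libraries. Its groups did not overlap, and the log2 fold change was −0.48 ± 0.06 (SE, adjusted p = 0.000505). PFKP, the platelet form, had 2110, 2681 and 2444 normalized counts in siDNp63 libraries, against 2963, 2857 and 2938 in siCTRL libraries. All 3 were below the siCTRL libraries, replicate 1 most of all, and the change of −0.27 ± 0.08 (SE, adjusted p = 0.0318) did not pass without siDNp63 replicate 3 or any of siCTRL replicates 1, 2 and 3 (adjusted p = 0.0810, 0.121, 0.0927 and 0.119), nor with transcript length in the fit (−0.15, adjusted p = 0.107).

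PFKL, the liver form, had 980.3, 1735 and 1759 normalized counts in siDNp63 libraries, against 2044, 1974 and 2014 in siCTRL libraries. Replicate 1 of siDNp63 was far below the others: the change was −0.42 ± 0.19 with it (SE, adjusted p = 0.130) and −0.20 without it (adjusted p = 0.00328). Summed over the 3 genes, phosphofructokinase TPM was 100.2, 104.8 and 101.7 in siDNp63 libraries, against 138.5, 135.8 and 132.6 in siCTRL libraries (exact two-sided permutation p = 0.1). PFKM took 23.4 ± 2.57% of it in siDNp63 cells and 29.2 ± 0.996% in siCTRL cells, and PFKP 54.6 ± 2.95% and 47.55 ± 1.143% (SD, n = 3 each, exact p = 0.1 for both). The difference for PFKM, −5.87 percentage points, was −1.59 when shares were taken of expected counts.

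GPI, ALDOA, ALDOC and TPI1, which carry glucose 6-phosphate down to triose phosphates, had log2 fold changes from −0.05 to 0.09 and did not pass. The aldolase ALDOA had 16914, 24157 and 22990 normalized counts in siDNp63 libraries, against 19507, 20665 and 19948 in siCTRL libraries, with siDNp63 replicate 1 below and the other siDNp63 libraries above every siCTRL library. Its change was 0.09 ± 0.12 (SE, adjusted p = 0.594) and became 0.24 without that replicate (adjusted p = 0.00237). The 3 PFKFB genes encode the enzymes that set fructose 2,6-bisphosphate, the activator of phosphofructokinase. PFKFB2, PFKFB3 and PFKFB4 had log2 fold changes of −0.01, 0.08 and 0.05, and 0 of 3 passed in edgeR, with 0 at an unadjusted p under 0.05 and 0 called by DESeq2.

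**Figure D3:**
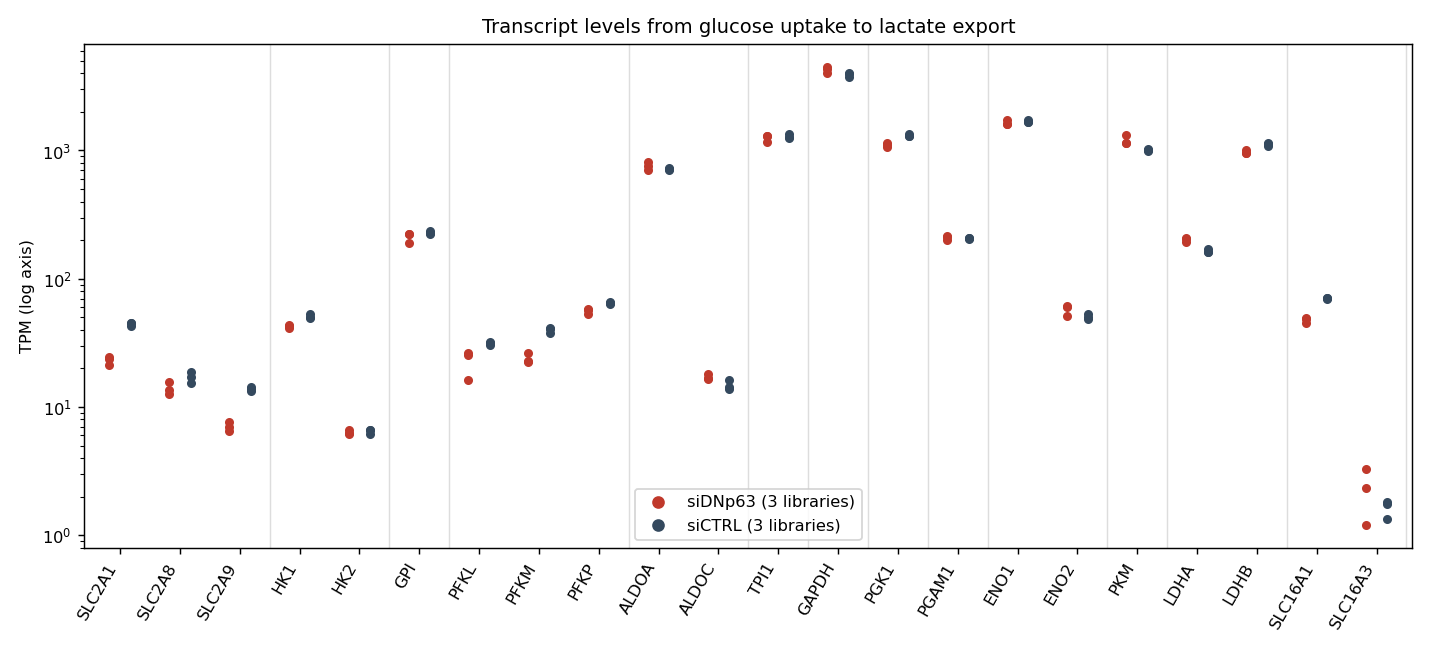
Level per transcript length (y axis, TPM on a log scale) of 22 genes in order from glucose uptake to lactate export; each point is a library, with siDNp63 to the left of siCTRL. GAPDH is highest, at a mean of 4085 TPM over the 6 libraries. SLC2A1, SLC2A8, SLC2A9, HK2, PFKL, PFKM, ALDOC and SLC16A3 lie below every enzyme of lower glycolysis in every library.

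Lower glycolysis held the highest levels. GAPDH, the triose phosphate dehydrogenase, had 122214, 144654 and 135422 normalized counts in siDNp63 libraries, against 113793, 121653 and 120978 in siCTRL libraries. A narrow margin kept the groups apart, and the change of 0.175 ± 0.061 on the log2 scale did not pass (SE, adjusted p = 0.0590). It did pass without siDNp63 replicate 1, at 0.24 (adjusted p = 0.00274), and under DESeq2 (adjusted p = 0.0166).

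PKM, encoding the pyruvate kinase of proliferating and muscle cells, had the smallest adjusted p of this group. It had 49670, 54801 and 52571 normalized counts in siDNp63 libraries, against 43459, 43822 and 43230 in siCTRL libraries, a log2 fold change of 0.27 ± 0.04 (SE, adjusted p = 0.00170). No library of either group crossed over, and the table does not separate the PKM1 and PKM2 splice forms. PGK1, phosphoglycerate kinase, was slightly lower, at 23210 ± 604 normalized counts in siDNp63 libraries and 25543 ± 852 in siCTRL libraries (SD, n = 3 each, log2 fold change −0.14 ± 0.04, SE, adjusted p = 0.0283). ENO2, the neuronal enolase, was slightly higher, at 2841 ± 56.4 in siDNp63 libraries and 2550.0 ± 133.5 in siCTRL libraries (SD, n = 3 each, log2 fold change 0.16 ± 0.05, SE, adjusted p = 0.0379).

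PGAM1 and ENO1 had log2 fold changes of 0.10 and 0.03 and did not pass, PGAM1 passing only without siDNp63 replicate 1 (0.13, adjusted p = 0.0261). The call of PGK1 ended without siDNp63 replicate 3, siCTRL replicate 2 or siCTRL replicate 3 (adjusted p = 0.0980, 0.0872 and 0.0957), and that of ENO2 without siDNp63 replicate 2 or 3 or siCTRL replicate 1 or 3 (adjusted p = 0.0788, 0.0642, 0.136 and 0.132). ENO2 also missed the threshold with library-size scaling (0.07, adjusted p = 0.279), with limma on log2(TPM + 1) (0.19, adjusted p = 0.132) and with transcript length in the fit (0.25, adjusted p = 0.0624). Over the 18 glycolytic enzymes and lactate dehydrogenases, summed TPM was 11669, 12454 and 12046 in siDNp63 libraries, against 11705, 12079 and 11911 in siCTRL libraries. These ranges overlapped, at 12056 ± 392.3 TPM in siDNp63 cells and 11898 ± 187.5 TPM in siCTRL cells (SD, n = 3 each, exact two-sided permutation p = 0.7, adjusted 0.784).

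At the end of the pathway the lactate dehydrogenase subunits moved in opposite directions. LDHA (chr11:18394560-18408425), the subunit that favours lactate production, had 6629, 6599 and 6250 normalized counts in siDNp63 libraries, against 4803, 4996 and 5301 in siCTRL libraries. All siDNp63 libraries were above all siCTRL libraries, and the log2 fold change was 0.37 ± 0.05 (SE, adjusted p = 0.000811). LDHB, the heart-type subunit, had 24288, 25580 and 25004 normalized counts in siDNp63 libraries, against 26523, 27428 and 28225 in siCTRL libraries, a change of −0.13 ± 0.04 (SE, adjusted p = 0.0289). That smaller change also left the groups apart, but it did not pass without siDNp63 replicate 3, siCTRL replicate 2 or siCTRL replicate 3 (adjusted p = 0.0772, 0.102 and 0.126), without a filter on low counts (adjusted p = 0.0606) or with transcript length in the fit (adjusted p = 0.0517).

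An unnamed Ensembl ID, ENSG00000288299, held the same values as LDHA, so the printed level of LDHA may be a part of its reads. The 2 IDs together reached 403 ± 11.5 TPM in siDNp63 cells and 329 ± 10.3 TPM in siCTRL cells (SD, n = 3 each, exact two-sided p = 0.1). LDHA alone made up 17.2 ± 0.490% of lactate dehydrogenase TPM in siDNp63 cells and 12.8 ± 0.480% in siCTRL cells, and the ratio of both LDHA IDs to LDHB was 0.4155 ± 0.0143 and 0.295 ± 0.0126 in siDNp63 and siCTRL cells (SD, n = 3 each, exact p = 0.1 for both). The difference in the LDHA share was 4.36 percentage points, and 6.60 with the second ID added. The 6 pseudogenes of LDHA summed to 16.8 TPM in siDNp63 cells and 14.15 TPM in siCTRL cells on average.

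**Figure D4:**
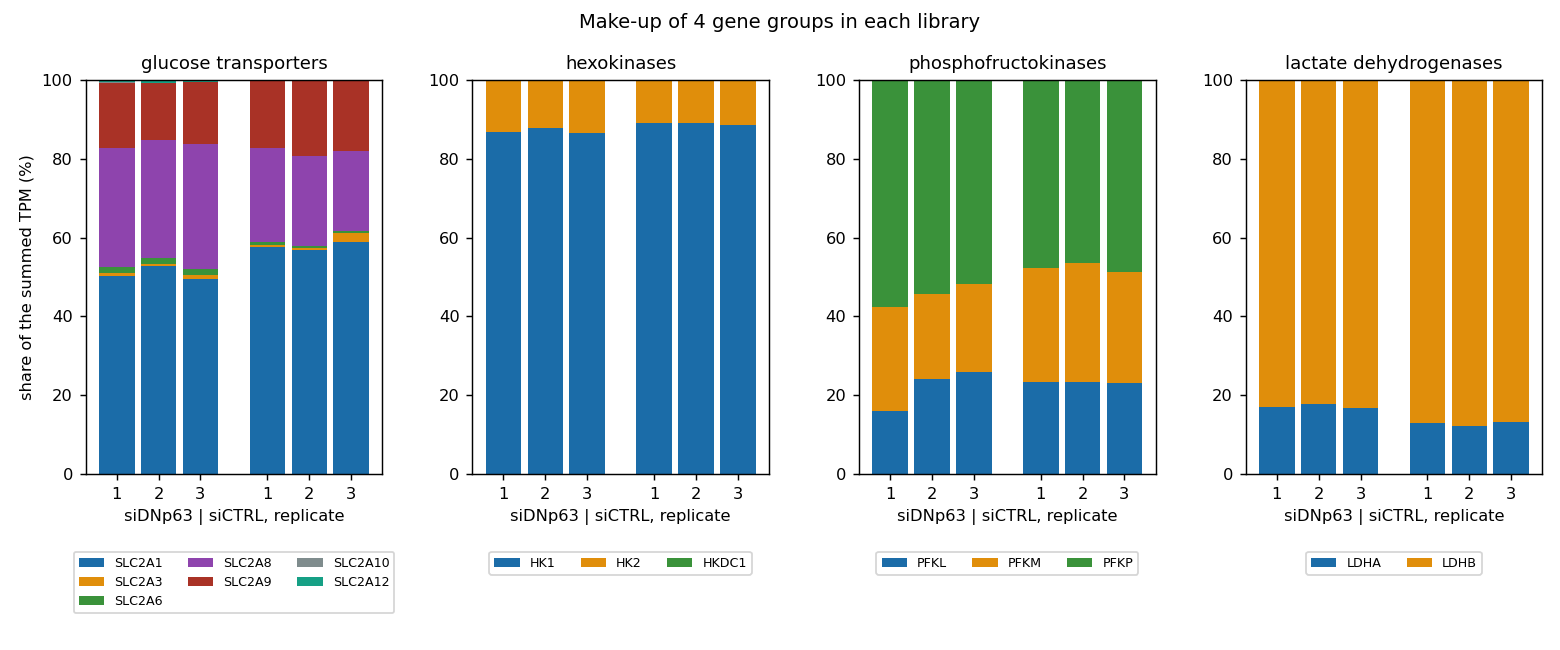
Share of each gene in the summed TPM of its group (y axis, percent) in each siDNp63 and siCTRL library, for glucose transporters, hexokinases, phosphofructokinases and lactate dehydrogenases. SLC2A1 averages 50.9% of transporter TPM in siDNp63 cells and 57.8% in siCTRL cells, and LDHA 17.2% of lactate dehydrogenase TPM in siDNp63 cells and 12.8% in siCTRL cells. Unnamed IDs with the same values as LDHA and SLC2A6 are left out of the shares.

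Lactate carriers also differed in direction. SLC16A1, encoding MCT1, had 5229, 4786 and 5062 normalized counts in siDNp63 libraries, against 6836, 7110 and 7197 in siCTRL libraries. Its groups did not overlap, at a log2 fold change of −0.49 ± 0.05 (SE, adjusted p = 0.000140). SLC16A3, encoding the HIF-responsive exporter MCT4, had 87.0, 145.5 and 122.1 normalized counts in siDNp63 libraries, against 79.0, 72.8 and 48.4 in siCTRL libraries, a change of 0.825 ± 0.249 (SE, adjusted p = 0.0359). Replicate 1 of siDNp63 lay close to the siCTRL libraries, and leaving it out gave 0.998 (adjusted p = 0.010), while leaving out any of the other 5 libraries ended the call (adjusted p = 0.0614 to 0.117). It was also lost with transcript length in the fit (0.53, adjusted p = 0.335), with limma on log2(TPM + 1) (0.26, adjusted p = 0.466) and with library-size scaling (0.74, adjusted p = 0.0565). In TPM, SLC16A1 exceeded SLC16A3 by 25.1 ± 14.1 times in siDNp63 cells and 43.95 ± 8.20 times in siCTRL cells (SD, n = 3 each, exact two-sided p = 0.3, adjusted 0.365).

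Pyruvate dehydrogenase kinases keep pyruvate out of mitochondria. PDK1, a HIF target, did not pass (log2 fold change −0.02 ± 0.09, SE, adjusted p = 0.863). PDK3 had 2781, 2809 and 2869 normalized counts in siDNp63 libraries, against 2607, 2587 and 2589 in siCTRL libraries, a log2 fold change of 0.12 ± 0.035 (SE, adjusted p = 0.0331). The groups did not overlap, but the call was lost on leaving out any library but siDNp63 replicate 1 (adjusted p = 0.0502 to 0.131), with library-size scaling (0.03, adjusted p = 0.490), without a filter (adjusted p = 0.0655) and with limma on log2(TPM + 1) (0.15, adjusted p = 0.222).

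CA9, the carbonic anhydrase widely used as a marker of HIF-1 activity, had 0 counts in all 3 siDNp63 libraries and in siCTRL replicates 2 and 3, and 1 count in siCTRL replicate 1. A count of 0 allows up to 3 counts, or 0.0570 to 0.0840 CPM (counts scaled to the library total) in these libraries, so a difference was not detectable at this depth. CA12, the other membrane carbonic anhydrase, had 2107, 1978 and 1897 normalized counts in siDNp63 libraries, against 2220, 2195 and 2191 in siCTRL libraries. The groups did not overlap, and the change of −0.14 ± 0.05 (SE, adjusted p = 0.0528) passed, among the alternatives run, only on leaving out siDNp63 replicate 1 (−0.18, adjusted p = 0.00486), with library-size scaling (−0.23, adjusted p = 0.00546) or with a filter of 10 counts in every library (−0.16, adjusted p = 0.0223).

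The 7 genes of the HIF system and hypoxia response all passed, 5 higher and 2 lower, beside 18.4% higher and 15.2% lower over all tested genes. HIF1A (chr14:61695513-61748259), the oxygen-regulated subunit of HIF-1, had 35793, 33576 and 34682 normalized counts in siDNp63 libraries, against 27194, 28442 and 29160 in siCTRL libraries. These groups lay apart, at a log2 fold change of 0.295 ± 0.041 (SE, adjusted p = 0.00103). Its protein is controlled mainly by degradation and was not measured here.

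EGLN1 and EGLN3 encode the prolyl hydroxylases PHD2 and PHD3, which mark HIF for degradation and are HIF targets themselves. EGLN3 had 101.1, 107 and 105.9 normalized counts in siDNp63 libraries, against 72.0, 68.6 and 59.7 in siCTRL libraries, a log2 fold change of 0.65 ± 0.14 (SE, adjusted p = 0.0104). EGLN1 was higher by less, at 2858, 2570 and 2494 normalized counts in siDNp63 libraries, against 2202, 2274 and 2280 in siCTRL libraries (log2 fold change 0.23 ± 0.06, SE, adjusted p = 0.0164). Neither pair of groups overlapped, and the call of EGLN1 ended without siCTRL replicate 1 (adjusted p = 0.05497), with library-size scaling (adjusted p = 0.0629) and with limma on TPM (adjusted p = 0.0564).

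BNIP3, a mitochondrial protein of mitophagy and one of the best-known HIF targets, had 941, 937 and 772.5 normalized counts in siDNp63 libraries, against 573, 567 and 585 in siCTRL libraries, a log2 fold change of 0.62 ± 0.09 (SE, adjusted p = 0.00126). Its groups did not overlap, and siDNp63 replicate 3 was nearest to siCTRL. The table holds 44 pseudogenes of BNIP3, which summed to 3.13, 2.93 and 4.56 TPM in siDNp63 libraries and 5.599, 4.02 and 3.71 TPM in siCTRL libraries, beside 11.6 and 7.94 TPM for the gene in siDNp63 and siCTRL cells. ANKRD37, an ankyrin repeat protein induced by HIF-1, had 134, 135 and 111 normalized counts in siDNp63 libraries, against 44.25, 82.2 and 60.8 in siCTRL libraries, a log2 fold change of 1.03 ± 0.23 (SE, adjusted p = 0.0110). Its groups were apart, but the call of ANKRD37 was lost with limma on TPM (0.55 with a pseudocount of 1, adjusted p = 0.0562) and with transcript length in the fit (0.70, adjusted p = 0.0688).

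NDRG1, a stress- and hypoxia-responsive gene of differentiation on chromosome 8, had 5796, 5907 and 5703 normalized counts in siDNp63 libraries, against 9599, 9919 and 10019 in siCTRL libraries. The groups were far apart, at 0.589-fold and a log2 fold change of −0.76 ± 0.04 (SE, adjusted p = 6.92e-06), the smallest adjusted p of the 38 genes. ADM, the vasodilator peptide adrenomedullin, had 264, 290.2 and 287 normalized counts in siDNp63 libraries, against 435.5, 423 and 372 in siCTRL libraries. Its groups did not overlap, at a log2 fold change of −0.55 ± 0.10 (SE, adjusted p = 0.00341).

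**Figure D5:**
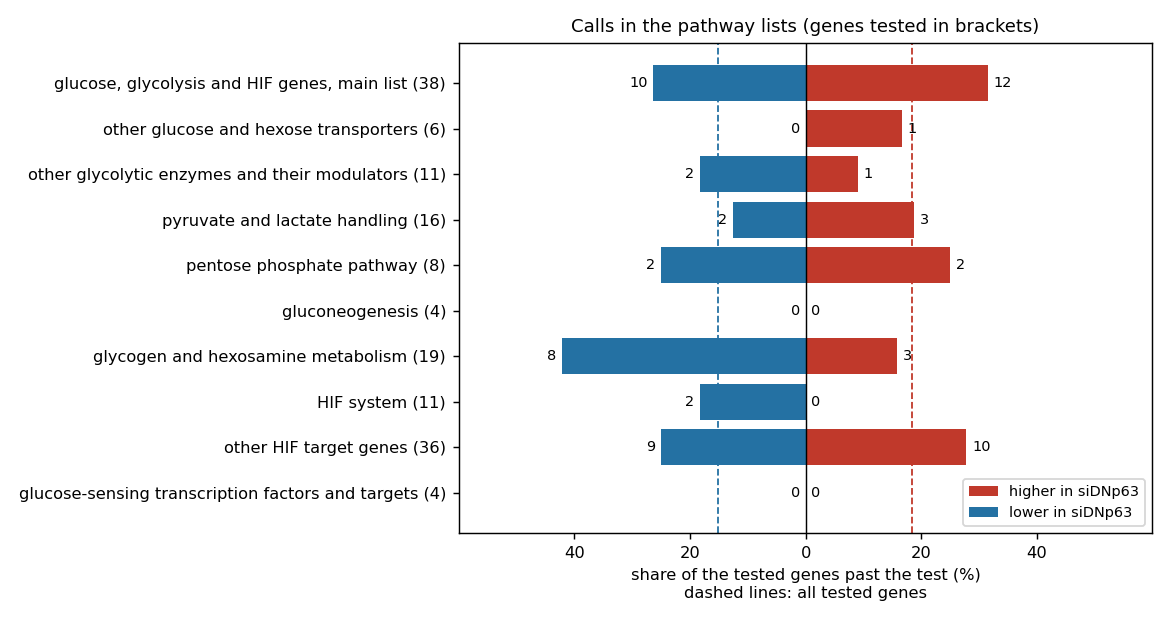
Share of tested genes that passed (x axis, percent), lower in siDNp63 to the left of 0 and higher to the right, for the main list and 9 related lists with the number tested in brackets; numbers at the bars are genes, and dashed lines mark 15.2% lower and 18.4% higher over all tested genes. Glycogen and hexosamine metabolism has 8 of 19 genes lower, and the other HIF targets have 9 lower and 10 higher of 36.

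Genes around these pathways were counted from 9 further lists written from general knowledge. Over all tested genes, 15.2% were lower and 18.4% higher. Of 36 other HIF targets tested, 9 were lower and 10 higher, with a median log2 fold change of −0.06. VEGFA, the angiogenic growth factor, averaged 2509 normalized counts in siDNp63 cells and 1269 in siCTRL cells (log2 fold change 0.98 ± 0.04, SE, adjusted p = 3.25e-06). ZNF395, a hypoxia-induced transcription factor, and AK4, a mitochondrial adenylate kinase, were lower (−0.45 and −0.47). Of 11 genes of the HIF system itself, HIF3A and USP20 were lower (−0.64 and −0.34, adjusted p = 0.0404 and 0.0455), and 0 were higher in edgeR, with 2 higher at an unadjusted p under 0.05 and 1 by DESeq2. HIF3A lost its call on leaving out any library but siDNp63 replicate 1 (adjusted p = 0.0732 to 0.121), and USP20 on leaving out siDNp63 replicate 2 or any siCTRL library (adjusted p = 0.0954 to 0.145). DESeq2 did not call HIF3A (adjusted p = 0.181). HIF3A and USP20 also missed the threshold without a filter (adjusted p = 0.0823 and 0.0578) and with limma on log2(TPM + 1) (0.0640 and 0.0633). With transcript length in the fit their adjusted p was 0.0842 and 0.0991. Without siDNp63 replicate 1 this list had 4 lower and 1 higher, without siDNp63 replicate 3 it had 1 lower, and without any of the other 4 libraries it had 0 lower.

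Glycogen and hexosamine metabolism had 8 of 19 genes lower and 3 higher, with a median of −0.26. The shares over all tested genes were 15.2% lower and 18.4% higher. UGP2, which makes UDP-glucose, averaged 2355 normalized counts in siDNp63 cells and 4164 in siCTRL cells (−0.82 ± 0.05, SE, adjusted p = 1.92e-05), and PGM3 of the hexosamine route was lower by less (−0.29). PYGL, the liver form of glycogen phosphorylase, was higher (0.39). The lower count became 5 without siCTRL replicate 2.

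In the pentose phosphate pathway 2 of 8 genes were lower and 2 higher, beside 15.2% lower and 18.4% higher over all tested genes. RPIA, ribose 5-phosphate isomerase, averaged 1478 normalized counts in siDNp63 cells and 783 in siCTRL cells (0.915 ± 0.062, SE, adjusted p = 2.83e-05). H6PD of the endoplasmic reticulum and PGD of the oxidative branch were lower (−0.31 and −0.16), PGD not without siDNp63 replicate 3 or any siCTRL library (adjusted p = 0.0528 to 0.0741). The lower count was 1 in each of those 4 fits, and the higher count 1 without siDNp63 replicate 3 or siCTRL replicate 1 or 2.

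Of 16 genes of pyruvate and lactate handling, 2 were lower and 3 higher, beside 15.2% lower and 18.4% higher over all tested genes. PDP2, a pyruvate dehydrogenase phosphatase, and MPC2, a subunit of the mitochondrial pyruvate carrier, were higher (0.375 and 0.26), and PDPR, a regulator of that phosphatase, was lower (−0.30). MPC2 was not called without siCTRL replicate 1 or 2 (adjusted p = 0.0544 and 0.0670). The list had 1 higher gene in each of those fits, so another higher call was lost there as well. On log2(TPM + 1) limma called neither MPC2 nor PDP2 (adjusted p = 0.146 and 0.238). The lower count was 1 without siDNp63 replicate 2 or 3 or siCTRL replicate 2 or 3. Of the other glycolytic genes tested, BPGM, which makes 2,3-bisphosphoglycerate, was higher (0.36). ADPGK, which phosphorylates glucose with ADP, was lower (−0.14), a call that ended without siDNp63 replicate 1 or 3 or siCTRL replicate 2 or 3 (adjusted p = 0.0513 to 0.147).

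Of 6 other transporters tested, SLC2A13, a proton-coupled inositol carrier, was higher (1124 normalized counts in siDNp63 cells and 739.7 in siCTRL cells, log2 fold change 0.60 ± 0.07, SE, adjusted p = 0.000433). With limma on log2(TPM + 1) its change was 0.35 (adjusted p = 0.0525). Lower calls numbered 0 in edgeR, with 0 at an unadjusted p under 0.05 and 0 by DESeq2. Gluconeogenesis had 0 of 4 genes called and the glucose-sensing factors with their targets 0 of 4, with 1 and 2 genes lower at an unadjusted p under 0.05 and 0 called by DESeq2. Over all tested genes 33.6% were called in edgeR. Without siDNp63 replicate 1 or 2 the gluconeogenesis list had 1 lower gene.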

How the data were processed

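RNA of 6 SCC90 libraries, 3 siDNp63 and 3 siCTRL, was sequenced from a single end after poly(A) selection with a stranded kit. According to the submitters' processing notes, bcl2fastq 2.17.1.14 and kallisto 0.46.2 were used with build hg38, and no annotation release was found. Per gene, the authors added up kallisto's transcript estimates, left unscaled, to give the deposited expected counts, while the deposited TPM values are the authors' abundances per transcript length. All 12 per-library columns were used.

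Here 35538 of 40488 gene IDs matched a name table, 30084 with a symbol. Expected counts were rounded, filtered with filterByExpr (minimum count 10), scaled by TMM and fitted with edgeR 4.0.16 (R 4.3.3) by the quasi-likelihood test with group as the only term and Benjamini-Hochberg adjustment over all 17257 genes. SE is the standard error implied by the quasi-likelihood F statistic, the absolute log2 fold change over the square root of F, and SDs are over libraries. Shares and sums of TPM were compared by exact permutation tests. Gene coordinates are those of the GRCh38 annotation. The fit was also run on simulated counts with few changed genes and no outlying library. These settings differ from the data, so that run does not measure how reliable the calls here are. The genes and lists were chosen with earlier results of these data known. Values in every library were given for genes past the test with an absolute log2 fold change of at least 0.5 and for SLC2A1, HK2, LDHA, CA9 and HIF1A, and each related list was represented by at most 3 genes, those lowest in p; PFKL, PFKM, PFKP, ALDOA, GAPDH, PKM, LDHB, SLC2A3, SLC2A8, SLC16A1, PDK3, CA12 and EGLN1 were given per library after their values had been seen. The alternatives were DESeq2 1.42.0, other scalings and filters, the replicate number as a block, limma 3.58.1 on TPM, a stricter threshold, and each library left out. Transcript length in the fit and the copy IDs were added after seeing the data. Counting errors and floors cover counting only. For the list of other glycolytic genes, 1 result is not reported here.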

Additional observations from a re-analysis of the deposited data

How the results depend on the processing

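Over all alternatives, 534 of 604 refitted log2 fold changes of these genes kept their side of the threshold, 61 lost the call and 9 gained it. Among the called genes 0 changed sign. Genes called in neither fit were counted as kept even where their sign changed. An example is SLC2A3, at 0.21 in the main fit and −0.86 with transcript length in the fit. Of the 22 calls, 12 were kept at an adjusted p under 0.05 in every refit that tested the gene. The main counts were 10 lower and 12 higher. The lower count was 6 at an adjusted p under 0.005, where the higher count was 5, so EGLN3, among those 12, was not called. The higher count was 7 with limma on log2(TPM + 1), 7 on log2(TPM + 0.1) and 6 on log2(TPM + 1) with a mean TPM of at least 1. Leaving out each library in turn gave 6 to 12 lower and 8 to 15 higher genes, the 6 without siCTRL replicate 3 and the 15 without siDNp63 replicate 1. Among these fits the share over all genes was counted only without siDNp63 replicate 1. The causes of the differences between fits were not tested. DESeq2 gave 10 lower and 12 higher. On expected counts in place of TPM, the difference in share, siDNp63 minus siCTRL, was −2.52 percentage points for HK1 (−1.80 in TPM), −1.59 for PFKM (−5.87 in TPM) and 5.13 for LDHA (4.36 in TPM), and LDHA with its copy ID gave 6.60.

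With the replicate number as a block, 8 lower and 9 higher genes were called: PGK1, LDHB, SLC2A6, ENO2, PDK3 and SLC16A3 did not pass and GAPDH did. Same-numbered libraries did not deviate together (correlations −0.012, 0.017 and 0.027), so the numbers were not taken as pairs. Library-size scaling put the median log2 fold change over all genes at −0.11 and gave 11 lower and 8 higher of these genes. Higher genes made up 36.1% of all calls under it, 41.5% to 42.3% with limma on TPM and 54.7% in the main fit. Genes under about 100 normalized counts, such as SLC2A3, SLC2A6 and SLC2A12, carry the largest counting error, and 3 genes could not be tested at this depth.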
